A study of Homo sapiens with 4 samples.

Results

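The genes described here are CDH1, CDH2 and CDH6, which encode classical cadherins, JUP, DSP and PKP2, which encode proteins of the desmosome plaque, VIM, which encodes the intermediate filament protein vimentin, and SNAI2, ZEB1 and ZEB2, which encode transcription factors of the epithelial-to-mesenchymal transition (EMT). They were chosen by name, with earlier results of these data known, and all 10 are among the 59050 genes of the count table. They were read by RNA sequencing in RCC4, a human clear cell renal cell carcinoma (ccRCC) line in which doxycycline switches on either a hairpin against PML (shPML) or a scrambled one (shCtrl). Both groups were puromycin-selected bulk populations made with lentivirus, and both received 100 ng/ml doxycycline for 96 h, so the drug is shared and the hairpin is what differs. There were 2 experiments with independent infections, read here as replicates 1 and 2, and each gave 1 shCtrl and 1 shPML library. A single hairpin in a single line was sequenced, so an effect of this hairpin on other transcripts cannot be told apart from an effect of PML. The question addressed is whether the 4 epithelial genes (CDH1, JUP, DSP, PKP2) and the 5 mesenchymal genes (CDH2, VIM, SNAI2, ZEB1, ZEB2) moved in opposite directions when PML was silenced. CDH6 was placed in neither class.

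Cadherins join neighbouring cells through their extracellular domains and bind catenins inside the cell. Desmosomes are junctions in which plakoglobin (JUP) and plakophilins such as PKP2 connect desmosomal cadherins to desmoplakin (DSP), which holds the keratin filaments, and plakoglobin also takes part in adherens junctions, where it can stand in for β-catenin. In EMT, factors of the SNAI and ZEB families bind E-box sequences and repress CDH1, the E-cadherin gene, while N-cadherin (CDH2) and vimentin are typically gained. Renal proximal tubule cells are unusual epithelia, since they normally carry N-cadherin and cadherin-6 (CDH6), and ccRCC is thought to arise from them.

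The libraries held from 27781193 to 69870617 counted reads, and levels are given as CPM, read counts relative to TMM-adjusted library size, or as TPM, which also divides by gene length, where genes are compared with each other. PML, the targeted gene, was at 93.1 and 136 CPM in shCtrl replicates 1 and 2 and at 54.9 and 87.6 CPM in shPML, a log2 ratio of -0.76 and -0.63 within the experiments, and its log2 fold change was -0.69 ± 0.30 (SE, adjusted p = 0.32) without the experiment as a block and -0.70 (adjusted p = 4.2e-07) with it. Markers of renal carcinoma cells, among them PAX8, PAX2, CA9, NDUFA4L2, KRT8 and KRT18, were present in every library, and their list had a summed level of 1493 to 2148 CPM. The library labelled shPML replicate 2 stood apart from the other 3. The 5 leukocyte markers summed to 141 CPM there, with LYZ at 85.4, CD14 at 42.8 and PTPRC at 12.6 CPM, against 0.111 to 0.181 CPM in the other 3 libraries, and CD3E, a T cell marker, was at 0 in all 4. A list of 12 myeloid markers, chosen after the counts were read, summed to 334 CPM in that library with all 12 at or above 1 CPM, against 3.36 to 3.81 CPM in the others. The 5 endothelial markers summed to 4.36 CPM there, most of it PECAM1, against 0.166 to 0.389 CPM, and the 5 fibroblast markers to 11.7 to 25.8 CPM over the 4 libraries. Where leaving it out moved a log2 fold change printed here by over 1.5 times or turned a median, the value without it is given.

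**Figure D1:**
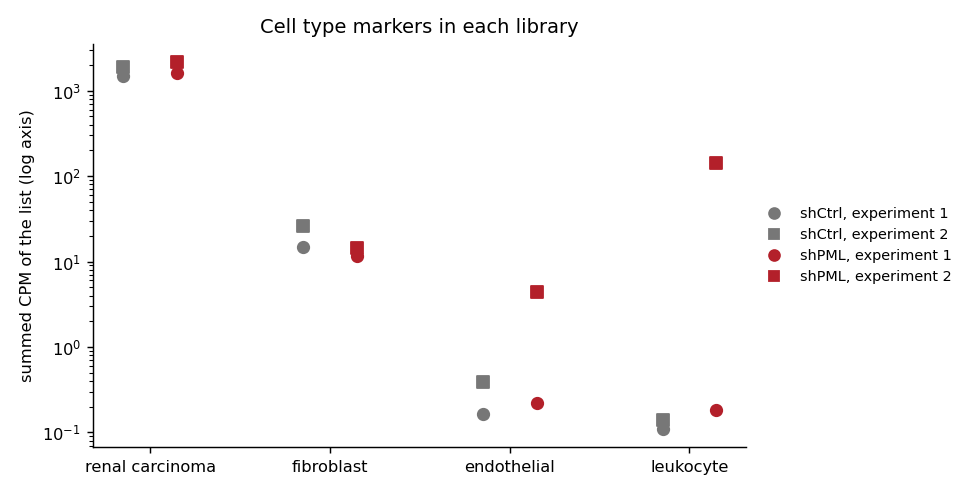
Summed CPM of 4 lists of cell type markers (vertical log axis) in each library, with shCtrl in grey, shPML in red, circles for experiment 1 and squares for experiment 2. The leukocyte list stands at 141 CPM in shPML replicate 2 and at 0.111 to 0.181 CPM in the other 3 libraries, while the renal list lies between 1493 and 2148 CPM in all 4.

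Counts were tested with edgeR's quasi-likelihood test and Benjamini-Hochberg adjustment over the 16516 genes that passed a filter on low counts, and calls needed a log2 fold change of more than 0.5 in size and an adjusted p below 0.05. Of the 10 genes 9 passed the filter, and CDH1 did not. Without a block, 0 of the 9 were called, against 0.0787% of all genes tested called higher and 0.333% called lower. In that fit 4 of the 9 (JUP, PKP2, SNAI2, ZEB2) had an unadjusted p under 0.05, as did 2958 of the 16516 genes tested. No gene of the whole table was below an adjusted p of 0.0484 in that fit. With the experiment as a block, 2 of the 9 were called higher (JUP and ZEB2) against 8.57% of all genes tested, and 2 were called lower (PKP2 and SNAI2) against 10.5%. Both shPML libraries lay above both shCtrl libraries for 5 of the 9 (CDH2, CDH6, JUP, VIM, ZEB2), against 23.1% of all genes tested, and below them for 3 (DSP, PKP2, SNAI2), against 24.9%. Each class therefore held 1 gene called higher and 1 called lower with the block. An exact permutation test of 2 libraries against 2 cannot give a two-sided p under 0.333, so none is given for single genes. The p-values measure only the spread between these libraries. With the block, 4 libraries leave little to measure a gene's own spread. The p-values and intervals with the block therefore rest largely on a spread estimated over all genes tested together. The RNA is from bulk cultures, so fewer cells of a kind and less RNA per cell cannot be told apart.

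**Figure D2:**
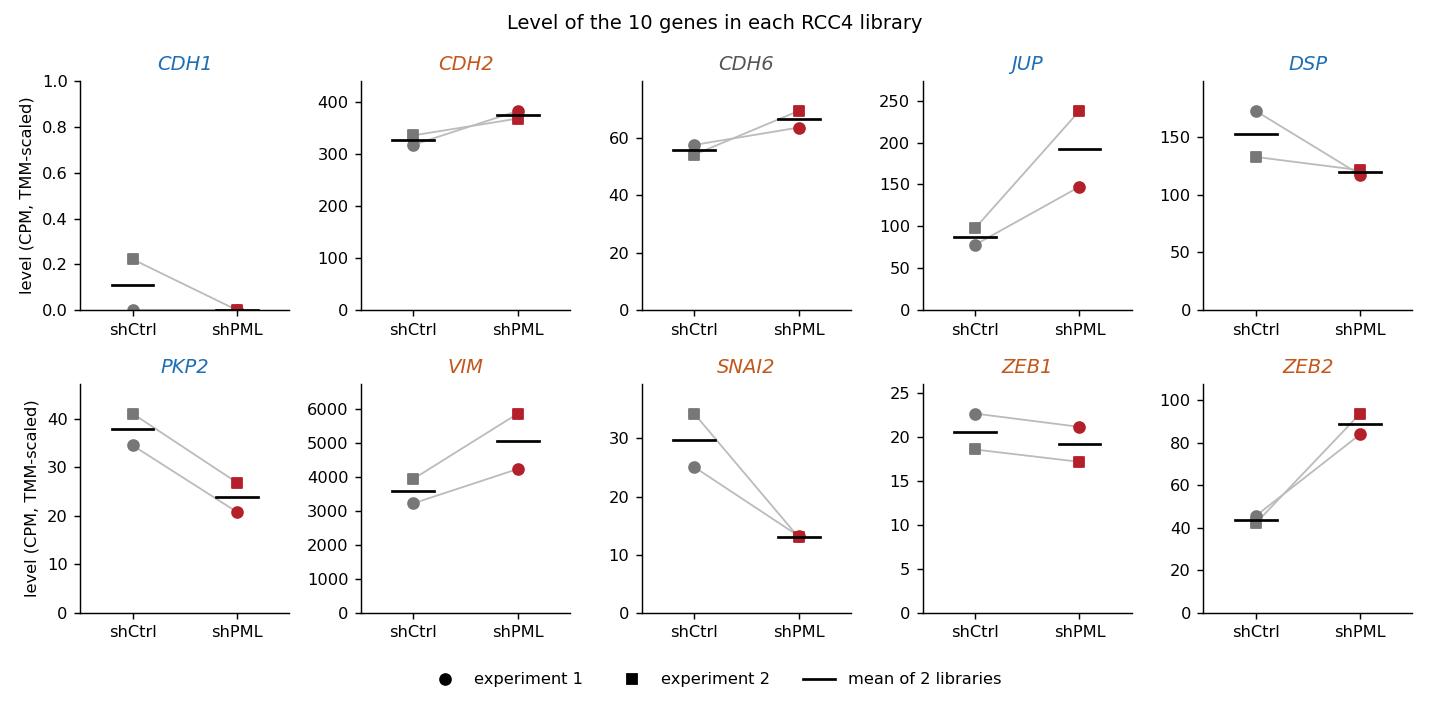
Level in CPM (vertical linear axis from 0) of the 10 genes in shCtrl (grey) and shPML (red), with circles for experiment 1, squares for experiment 2, grey lines joining the libraries of an experiment and black bars at the mean of 2 libraries; gene names are blue for epithelial and orange for mesenchymal genes. JUP and ZEB2 lie higher and PKP2 and SNAI2 lower in shPML in both experiments, and CDH1 is at or near 0 in all 4 libraries.

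CDH1, on chromosome 16 of GRCh38 from 68737292 to 68835541, was essentially unread in these cells. Its count was 0 in shCtrl replicate 1 and in both shPML libraries and 8 in shCtrl replicate 2, which is 0.222 CPM. The counts of 0 allow levels of up to 0.0554 CPM in shCtrl replicate 1, 0.0418 CPM in shPML replicate 1 and 0.109 CPM in shPML replicate 2, counting error only. In replicate 2 the shCtrl level lay above the limit of shPML. CDH1 was read in only 1 control library, with the other at 0, so whether it fell cannot be told and no fold is given. Other epithelial genes differed in level. EPCAM, an epithelial adhesion molecule, was at 39.0 to 52.4 CPM and KRT8, a simple-epithelium keratin, at 348 to 518 CPM, whereas ESRP1, an epithelial splicing factor, and GRHL2, an epithelial transcription factor, were at 0 in all 4 libraries.

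CDH2, on chromosome 18 from 27950966 to 28177130, was the main classical cadherin of the 3 on the per-length scale, at 206 and 215 TPM in shCtrl and 248 and 241 TPM in shPML. In CPM it was at 317 and 335 in shCtrl replicates 1 and 2 and at 382 and 368 in shPML. Both shPML libraries were higher, by 1.21-fold and 1.10-fold within the experiments. The log2 fold change was 0.20 ± 0.15 (SE, adjusted p = 0.56), and with the block it was 0.20 (95% interval 0.0094 to 0.39, adjusted p = 0.109), so CDH2 was not called by either fit.

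CDH6, on chromosome 5 from 31193686 to 31329146, was read at 57.4 and 54.0 CPM in shCtrl and 63.5 and 69.2 CPM in shPML. The groups did not overlap, but the difference was small, with a log2 fold change of 0.25 ± 0.15 (SE, adjusted p = 0.47) and of 0.25 with the block (95% interval 0.018 to 0.48, adjusted p = 0.098). The ratio of the CDH2 to the CDH6 level in TPM was 12.0 and 13.5 in shCtrl and 13.1 and 11.5 in shPML, so the balance between these kidney cadherins overlapped between the groups.

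Of a list of 22 classical and related cadherins, 7 were tested and 15 had too few reads. With the block 1 was called higher (14.3%, against 8.57% of all genes tested) and 2 lower (28.6%, against 10.5%). All of them were outside the 3 genes above. CDH24 rose from 17.7 and 25.2 CPM to 27.1 and 37.3 CPM (log2 fold change 0.59, and 0.34 without shPML replicate 2). CDH4, R-cadherin, fell from 38.1 and 54.9 CPM to 21.4 and 31.5 CPM (log2 fold change -0.82), and CDH17, a cadherin known from intestine and liver, from 2.16 and 2.53 CPM to 0.391 and 0.691 CPM (log2 fold change -2.14). CDH16, the kidney-specific Ksp-cadherin, was at 12.8 and 15.2 CPM in shCtrl and 14.1 and 17.3 CPM in shPML and was not called. The 7 include CDH2 and CDH6, and their median log2 fold change without the block, 0.20, is the value of CDH2 itself. For all genes tested the median was 0.0095, and it turned to -0.011 without shPML replicate 2.

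The 3 plaque genes of the desmosome did not move together. JUP, on chromosome 17 from 41754604 to 41786711, rose with the block, while PKP2, on chromosome 12 from 32790745 to 32896840, fell, and DSP, on chromosome 6 from 7541617 to 7586714, was lower by less than the fold threshold.

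JUP was at 77.9 and 97.6 CPM in shCtrl and at 147 and 238 CPM in shPML. The shPML libraries were 1.89-fold and 2.44-fold above the shCtrl library of their own experiment, with the highest value in shPML replicate 2. The log2 fold change was 1.13 ± 0.28 (SE, adjusted p = 0.127) without the block and 1.10 (95% interval 0.89 to 1.31, adjusted p = 5.2e-13) with it. Without shPML replicate 2, the library with the leukocyte transcripts, it was 0.75 without a block. In experiment 1, where leukocyte markers were near 0 in both libraries, the log2 ratio was 0.92.

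PKP2 was at 34.5 and 41.1 CPM in shCtrl and at 20.8 and 26.8 CPM in shPML. Each shPML library was below both shCtrl libraries, at 0.602 and 0.653 of the level of its own experiment's control. This is a log2 fold change of -0.67 ± 0.20 (SE, adjusted p = 0.182) without the block and -0.68 (95% interval -0.92 to -0.43, adjusted p = 1.4e-05) with it.

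DSP was at 172 and 133 CPM in shCtrl and at 117 and 121 CPM in shPML. The groups did not overlap, yet the experiments differed in size, with a log2 ratio of -0.56 in replicate 1 and -0.13 in replicate 2, and whether these differ cannot be tested with 1 library in each. The log2 fold change was -0.36 ± 0.18 (SE, adjusted p = 0.397) without the block and -0.35 (95% interval -0.56 to -0.13, adjusted p = 0.0088) with it, which passed the p threshold and not that of the fold. Leaving out a control moved it most, to -0.14 without shCtrl replicate 1 and to -0.54 without shCtrl replicate 2.

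Set against each other per length, JUP shifted against both other plaque genes. In TPM, JUP was 2.69 and 2.83 times the PKP2 level in shCtrl and 8.45 and 10.6 times in shPML. The ratio of JUP to DSP in TPM was 1.18 and 1.93 in shCtrl and 3.29 and 5.15 in shPML. The ratio of DSP to PKP2 overlapped between the groups, at 2.27 and 1.47 in shCtrl and 2.57 and 2.05 in shPML. JUP also passed CTNNB1, the gene of β-catenin, in level: the TPM ratio of CTNNB1 to JUP was 1.75 and 1.31 in shCtrl and 0.921 and 0.506 in shPML, while CTNNB1 itself was at 282 and 264 CPM in shCtrl and 280 and 249 CPM in shPML and was not called.

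**Figure D3:**
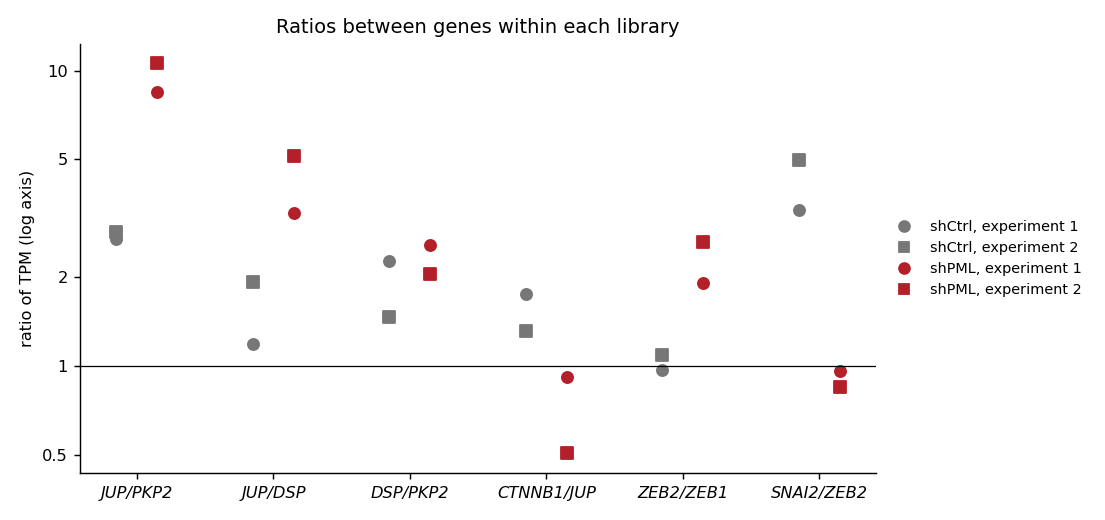
Ratios of TPM between pairs of genes (vertical log axis, horizontal line at a ratio of 1) within each library, with shCtrl in grey, shPML in red, circles for experiment 1 and squares for experiment 2. The JUP to PKP2 ratio is 2.69 and 2.83 in shCtrl and 8.45 and 10.6 in shPML, the SNAI2 to ZEB2 ratio goes from 3.37 and 4.99 to 0.963 and 0.848, and the DSP to PKP2 ratio overlaps between the groups.

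Of a list of 15 desmosome genes 7 were tested. With the block 1 was called higher (14.3%, against 8.57% of all genes tested) and 2 lower (28.6%, against 10.5%). Beside JUP and PKP2, the third was PERP, a membrane protein of the desmosome and a known p53 target, which fell from 159 and 181 CPM to 87.7 and 94.8 CPM (log2 fold change -0.90). DSG2, the only desmosomal cadherin that was tested, was at 183 and 172 CPM in shCtrl and 226 and 200 CPM in shPML (log2 fold change 0.26, not called). The median over the 7 was 0.13 without the block, against 0.0095 for all genes tested, but its sign was not stable, at -0.25 without shPML replicate 2 and at -0.039 and -0.0074 within experiments 1 and 2. Of 17 genes of cadherin-binding proteins 14 were tested. With the block 2 of these were called higher (JUP and ARVCF, 14.3%, against 8.57% of all genes tested) and 0 lower (against 10.5%). ARVCF, a catenin of the p120 family, rose from 7.80 and 10.0 CPM to 11.8 and 18.1 CPM, with a log2 fold change of 0.74, and of 0.40 without shPML replicate 2. CTNND1, which encodes p120 catenin itself, was at 318 and 306 CPM in shCtrl and 255 and 245 CPM in shPML and was not called. The median of the 14 was 0.048 without the block.

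E-boxes bound by SNAI and ZEB factors have the letters CAGGTG, or CACCTG on the other strand. Both were searched in RefSeq windows (GRCh38.p14) from 250 bases before to 50 after each start site. For the 10 genes, 14 windows of 6 were used (CDH2, JUP, DSP, VIM, ZEB1 and ZEB2). SNAI2 was left out when these windows were selected, and no window was used for CDH1, CDH6 or PKP2. The counts below therefore do not cover those genes. At least 1 such word occurs in 20.6% of all 35116 windows and at least 2 in 3.49%. Of the 14 windows, 4 held at least 1 and 3 held at least 2. The DSP window held 2 and the window of 1 of the 2 JUP starts held 2, and these are shown because the plaque genes are where the epithelial class split. No window of CDH2, VIM or ZEB2 held the word, and the other JUP start, at 41786711, held none. It occurred in 2 of the 7 windows of ZEB1, once in 1 of them and 3 times in the other, which is more than in DSP or JUP. The 30-base stretches read 5′ to 3′ on the gene's own strand, with the E-boxes in capitals. The DSP sites lie at chr6:7541481-7541510 and chr6:7541574-7541603 on the plus strand, 178 and 85 bases before the start at 7541671, and the JUP pair at chr17:41786008-41786037 on the minus strand, 54 and 43 bases before the start at 41785976. A match is only a description of these letters, and binding was not measured.
DSP site 1: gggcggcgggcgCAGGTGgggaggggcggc
DSP site 2: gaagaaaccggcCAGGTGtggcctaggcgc
JUP site: ctggcccCACCTGccgagCAGGTGagcgca

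Among the EMT factors, SNAI2 and ZEB2 were called in opposite directions with the block, and ZEB1 did not differ between the groups beyond their spread. SNAI2, which encodes the zinc finger repressor SLUG and lies on chromosome 8 from 48917598 to 48921429, was at 25.1 and 34.3 CPM in shCtrl and at 13.2 and 13.0 CPM in shPML. Both shPML libraries were close to each other and below both controls, at 0.527 and 0.379 of them within the experiments. In edgeR the log2 fold change was -1.18 ± 0.21 (SE, adjusted p = 0.077) without the block and -1.15 (95% interval -1.43 to -0.88, adjusted p = 4.9e-10) with it.

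ZEB2, on chromosome 2 from 144384081 to 144520398, was at 45.6 and 42.1 CPM in shCtrl and at 84.1 and 93.8 CPM in shPML. The groups did not overlap, with folds of 1.84 and 2.23 within the experiments. Its log2 fold change was 1.02 ± 0.15 (SE, adjusted p = 0.065) without the block and 1.02 (95% interval 0.78 to 1.25, adjusted p = 1.3e-10) with it. ZEB2 is also expressed in myeloid cells, and in experiment 1, where the 5 leukocyte markers summed to 0.111 CPM in shCtrl and 0.181 CPM in shPML, its log2 ratio was 0.88; without shPML replicate 2 its log2 fold change was 0.94.

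ZEB1, the paralogue of ZEB2, on chromosome 10 from 31319125 to 31529813, was at 22.7 and 18.6 CPM in shCtrl and at 21.2 and 17.2 CPM in shPML. The groups overlapped, and the larger gap was between the experiments. Its log2 fold change was -0.10 ± 0.20 (SE, adjusted p = 0.87), and the 95% interval with the block, -0.37 to 0.16, does not reach the fold threshold of 0.5 on either side, while the interval without the block, -0.62 to 0.41, passes it on the lower side.

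The order of the 3 factors on the per-length scale therefore differed between the groups. In TPM the SNAI2 level was 3.37 and 4.99 times that of ZEB2 in shCtrl and 0.963 and 0.848 times in shPML. ZEB2 and ZEB1 stood at a TPM ratio of 0.968 and 1.09 in shCtrl, with no clear order between them, and of 1.91 and 2.63 in shPML. SNAI1, the gene of SNAIL, went the same way as its relative SNAI2, from 5.91 and 12.1 CPM to 3.89 and 5.16 CPM (log2 fold change -0.91 with the block, called), and the TPM ratio of SNAI2 to SNAI1 was 3.32 and 2.21 in shCtrl and 2.65 and 1.97 in shPML, which overlap.

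Of 15 EMT factors 11 were tested. With the block 3 were called higher (27.3%, against 8.57% of all genes tested) and 2 lower (18.2%, against 10.5%). TCF4, an E-box-binding E protein, rose from 2.33 and 2.11 CPM to 4.52 and 5.75 CPM (log2 fold change 1.19 with the block). The third of the higher ones, SNAI3, was barely read, at 0.0554 and 0 CPM in shCtrl and 0.446 and 0.436 CPM in shPML. TWIST1 and PRRX1 were at 0 in all 4 libraries. The median log2 fold change of the 11 was -0.15 without the block and -0.12 with it.

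VIM, on chromosome 10 from 17229278 to 17237593, was the most abundant of the 10 genes per length, at 4634 and 5606 TPM in shCtrl and 6094 and 8509 TPM in shPML. In CPM it was at 3227 and 3948 in shCtrl and at 4241 and 5875 in shPML. Both shPML libraries were above both controls, by 1.31-fold and 1.49-fold within the experiments, and the highest value was in shPML replicate 2. The fitted log2 fold change was 0.50 ± 0.22 (SE, adjusted p = 0.33) without the block. With it the value was 0.48 (95% interval 0.32 to 0.64, adjusted p = 1.5e-06), past the p threshold and short of the fold threshold. Vimentin is abundant in myeloid cells too. Without the library with leukocyte transcripts the log2 fold change of VIM was 0.24, and within experiment 1, where those markers were near 0, the log2 ratio was 0.39. The part that the leukocyte transcripts have in the values of shPML replicate 2 for VIM, ZEB2 and JUP was not tested.

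**Figure D4:**
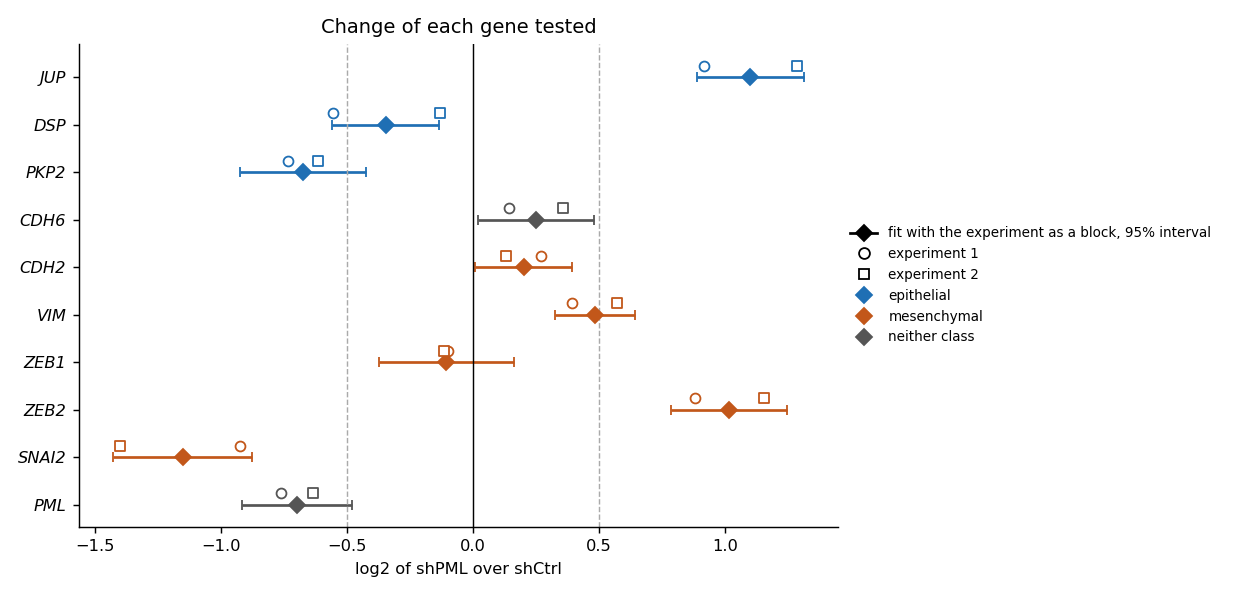
Log2 of shPML over shCtrl (horizontal axis) for the 9 genes tested and PML, with filled diamonds and bars for the fit with the experiment as a block and its 95% interval, open circles for experiment 1, open squares for experiment 2, and dashed lines at the fold threshold of 0.5 on either side. Blue epithelial genes lie on both sides of 0 (JUP 1.10, PKP2 -0.68), as do orange mesenchymal genes (ZEB2 1.02, SNAI2 -1.15).

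Put together by class, neither the epithelial nor the mesenchymal genes moved in a single direction. Of the 3 epithelial genes tested 1 was called higher and 1 lower with the block, with a median log2 fold change of -0.36 without it, and of the 5 mesenchymal genes 1 was called higher and 1 lower, with a median of 0.20. The mean log2 CPM of the 3 epithelial genes was 6.27 and 6.34 in shCtrl and 6.15 and 6.52 in shPML, so the libraries overlapped. For the 5 mesenchymal genes it was 6.93 and 7.01 in shCtrl and 7.03 and 7.08 in shPML. Both shPML values lay above both shCtrl values, as for 23.1% of single genes tested, while for 24.9% both lay below. The step from the higher control to the lower shPML library was smaller than the step between the 2 controls. The highest value was in shPML replicate 2, the library with leukocyte transcripts. Within the mesenchymal class SNAI2 and ZEB2 moved against each other by similar amounts in each experiment.

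The wider lists held called genes in both directions as well. Of 46 other epithelial genes 32 were tested. With the block 3 were called higher (9.38%, near the 8.57% of all genes tested) and 6 lower (18.8%, against 10.5%). Their median log2 fold change was -0.11 without the block and -0.10 with it. The other 14 were not tested, mostly for low counts. Among tight junction genes, CLDN1 rose from 62.5 and 69.4 CPM to 165 and 191 CPM (log2 fold change 1.43) and CGN, the gene of cingulin, from 10.8 and 11.1 CPM to 22.8 and 25.0 CPM, while CLDN2, a claudin of leaky epithelia such as the proximal tubule, fell from 866 and 745 CPM to 295 and 235 CPM (log2 fold change -1.61). The keratin gene KRT7 rose with a log2 fold change of 0.62, which was 0.32 without shPML replicate 2, and its log2 ratio was 0.34 in experiment 1 and 0.85 in experiment 2. AP1M2, an epithelial sorting adaptor, fell from 130 and 110 CPM to 44.0 and 36.2 CPM, CD24, a surface glycoprotein, from 286 and 379 CPM to 127 and 165 CPM, and MAL2, a protein of apical transport, from 14.7 and 24.6 CPM to 8.87 and 12.4 CPM.

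Of 41 other mesenchymal genes 33 were tested, with 10 called higher (30.3%, against 8.57% of all genes tested) and 7 lower (21.2%, against 10.5%) with the block and a median of 0.24, and without the block ITGA5, the integrin that binds fibronectin, was called higher and TAGLN lower. SPARC, a matrix protein, rose from 0.739 and 1.33 CPM to 7.30 and 18.7 CPM, and NT5E, the gene of CD73, from 55.2 and 39.8 CPM to 155 and 162 CPM. MMP2, a matrix metalloproteinase, S100A4 and FBN1, the gene of fibrillin-1, also rose, from levels below 0.3 CPM in every shCtrl library. In shPML replicates 1 and 2, MMP2 was at 0.558 and 5.02 CPM and S100A4 at 0.530 and 2.22 CPM, both highest in the library with leukocyte transcripts. Without that library the log2 fold change of MMP2 went from 4.86 to 2.61 and that of S100A4 from 2.66 to 1.32, and the part of the leukocyte transcripts in these values was not tested. The lower genes were led by actin-binding proteins of smooth muscle: TAGLN fell from 159 and 209 CPM to 21.4 and 20.7 CPM and CNN1 from 7.17 and 15.9 CPM to 0.921 and 0.946 CPM. WNT5A, a secreted ligand, fell to 4.64 and 7.38 CPM in shPML (log2 fold change -1.08), and PDGFRB, a growth factor receptor of stromal cells, from 3.44 and 9.53 CPM to 2.43 and 2.40 CPM.

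**Figure D5:**
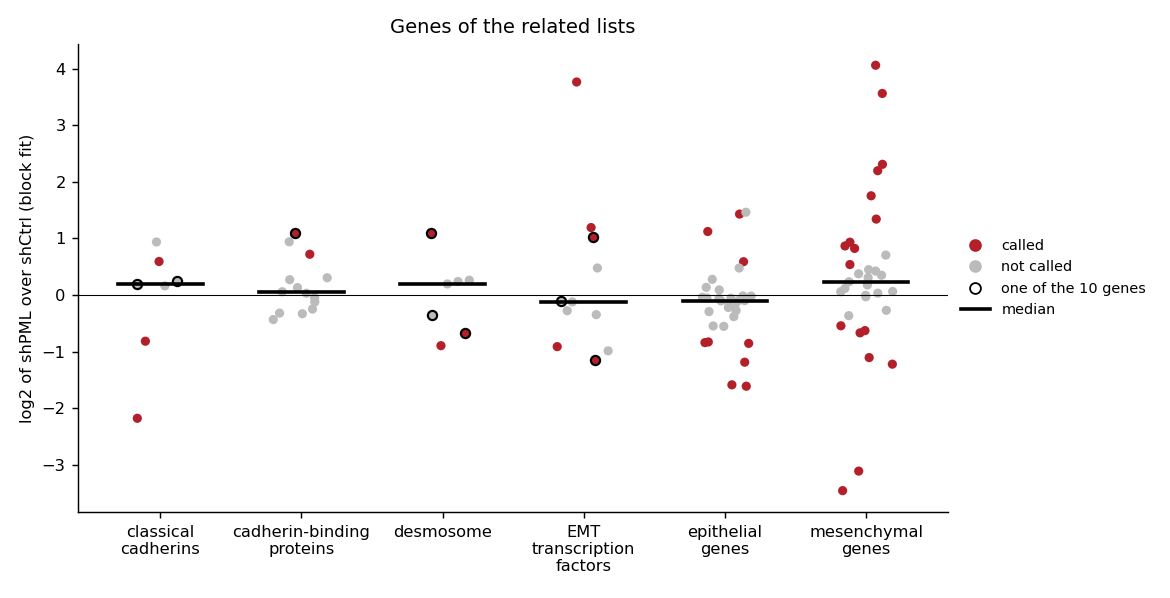
Log2 of shPML over shCtrl in the fit with the experiment as a block (vertical axis) for each tested gene of 6 lists, red where called, grey where not, outlined in black for the 10 genes described here, with a black bar at the median of each list. Every list except the cadherin-binding proteins holds called genes on both sides of 0, and the mesenchymal list has 10 higher and 7 lower.

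Several of the 10 genes overlap other annotated genes. Antisense genes share exon bases with CDH1, CDH2, CDH6, VIM and ZEB2, and ZEB1-AS1 overlaps the span of ZEB1 without sharing exon bases, while JUP, DSP and SNAI2 overlap none. Within the span of PKP2 lies AC087588.2, on the same strand without shared exon bases and with 0 to 14 counts in a library. Summed over the libraries, the most counts were those of AL133415.1, opposite VIM, with 339 and 37 counts in shCtrl and 671 and 49 in shPML, against 142124 to 304044 counts for VIM. ZEB2-AS1 had from 3 to 8 counts in a library, against 1516 to 6026 for ZEB2. The strand setting of the counting is not given in the sources used here, so reads of a gene and of its antisense partner cannot be told apart.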

How the data were processed

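Stranded mRNA libraries of 4 RCC4 samples were sequenced from a single end. The authors trimmed the reads with Trimmomatic 0.39, used STAR for alignment to GRCh38 and featureCounts 1.6.4 for counting on Gencode genes, and the deposited values are raw counts without normalization. The Gencode release is not given in the sources used here. Count columns without a number were taken as replicate 1, since the other column of each group carries the number 2. The record states that labels of 2 samples were exchanged at first submission and later put right, and its present labels were used.

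The main test was that of edgeR 4.0.16 in R 4.3.3 (filterByExpr, TMM, quasi-likelihood test, Benjamini-Hochberg adjustment), without a block. The limits for a call, 0.05 on the adjusted p and 0.5 on the size of the log2 fold change, are those in the study's methods. CPM are TMM-scaled, and TPM were computed from the counts and the deposited gene lengths. The standard error is the log2 fold change divided by the root of the F statistic. The experiment was a block in a further fit: the methods describe 2 experiments, and the deviations of the replicate 1 libraries from their group means had a correlation of 0.546 across genes, with a common dispersion of 0.0813 without the block and 0.0137 with it. Nothing further states how the libraries of an experiment were handled together.

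Alternatives were DESeq2 1.42.0 with and without the block, RLE normalization, library size only, other filters, no threshold or 1 on the log2 fold change, and each library left out. The 10 genes and all lists were chosen with earlier results of these data known, and lists are described by counts and medians without a test. Genes named beside the 10 are PML, overlapping genes, markers, and up to 4 genes of each list in each direction with the largest absolute log2 fold change among those called with the block and alike in direction in both replicates. A few others (EPCAM, CTNNB1, CTNND1, DSG2, CDH16, ESRP1, GRHL2, NT5E, ITGA5, TWIST1, PRRX1) were named after their values were seen. PALS1 of the epithelial list was not matched by name. Some marker genes are not reported here by themselves, and list sums include them. Limits of 0 counts (3 counts of the total) cover counting error only, and the 95% intervals come from the edgeR fit. They carry the spread between libraries, as estimated with information shared across genes.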

Additional observations from a re-analysis of the deposited data

How the results depend on the processing

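Without a replicate block 13 genes were called higher and 55 lower over the whole table, and 0 and 0 of the 9 genes tested here. The replicate block (paired by experiment) gave 1415 and 1735 over the table and 2 and 2 of the 9. DESeq2 gave 578 and 894, with 2 and 1 of the 9, without the block, and 1102 and 1384, with 2 and 2, with it. RLE normalization gave 0 and 0 (smallest adjusted p 0.0501 in edgeR, 2967 genes at an unadjusted p under 0.05), library size only 24 higher and 70 lower, no filter on low counts 891 and 946 with 2 and 2 of the 9, and at least 10 counts in every library 53 and 144 with 1 (ZEB2) and 0 of the 9. Leaving out 1 library gave 0 to 187 higher and 0 to 61 lower over the table, the 187 and 61 without shPML replicate 1, and 0 of the 9 each time. In these fits the lone library is assumed to vary like the other group. The cause was not tested in any of these. The log2 fold change of ZEB1 turned from -0.10 to 0.061 without shCtrl replicate 1 and to 0.037 without shPML replicate 2, and ranged from -0.27 to 0.061 over the 4 fits that left out a library. Without the latter, JUP went from 1.13 to 0.75, VIM from 0.50 to 0.24 and PML from -0.69 to -1.06, and PML was at -0.40 without shCtrl replicate 2 or without shPML replicate 1. DSP went from -0.36 to -0.14 without shCtrl replicate 1 and to -0.54 without shCtrl replicate 2. JUP, PKP2, SNAI2 and ZEB2 passed the threshold in 4, 3, 4 and 5 alternatives. Other scalings moved log2 ratios within an experiment by at most 0.0261 and reversed 0 of 18. With 2 libraries in a group, small changes such as those of CDH2 and CDH6 cannot be resolved, and CDH1 lies at the limit of detection.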
